A study of Mus musculus with 8 samples.

Results

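The genes described here are 46 components of the lysosome: 24 degradative enzymes and their cofactors, 6 proteins of the lysosomal membrane and 16 subunits of the proton pump that acidifies it. They were chosen by name, with earlier results of these data known, and each of the 46 names matched 1 of the 41388 gene identifiers measured. The study sorted macrophages from the epididymal white adipose tissue of 4 male MitoFat mice on normal chow. These mice carry a mitochondrial reporter specific to adipocytes, so a reporter signal in a macrophage marks mitochondria received from an adipocyte. Live cells positive for CD45, F4/80 and CD64 were parted into a population without the signal (mtD2-) and one with it (mtD2+), and each mouse gave both. All 8 libraries therefore share genotype, sex, diet, depot and gate, and differ in the reporter signal and the mouse. The sources used here state neither the age of the mice, nor the promoter behind the reporter, nor how many cells each library came from. The comparison asks how macrophages with the signal of adipocyte mitochondria differ from those of the same mice without it. Whether cells without the signal had received such mitochondria earlier cannot be told from the sort.

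Lysosomes are acidic compartments in which cells break down material taken up from outside and worn-out parts of their own, mitochondria among them. Their work needs soluble hydrolases that act at low pH, membrane proteins that protect the boundary and export products, and the vacuolar ATPase (V-ATPase), which pumps protons inward. The V-ATPase has a cytosolic V1 sector that splits ATP and a membrane V0 sector that carries protons, and the sectors can come apart and join again. In adipose tissue, lysosomal digestion of lipid released by adipocytes is a known task of macrophages.

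The libraries held 18462287 to 27464399 gene-assigned reads, and all 46 genes passed the filter on low counts, with between 116 and 326805 reads per gene and library. The macrophage genes of the gate were present throughout, but the 11 macrophage markers had a lower sum in mtD2+ in each mouse. They summed to 15345 to 17135 CPM in mtD2- and 12751 to 15101 in mtD2+, without overlap. The largest part of the sum was C1qb, at 5276 to 7071 CPM in mtD2- and 3500 to 5348 in mtD2+. C1qb fell (log2 -0.47, SE 0.11, edgeR adjusted p = 0.0381), whereas Mertk rose (0.51, SE 0.11, edgeR adjusted p = 0.0341). Mrc1 stood at 0.19 (SE 0.10) without passing. By edgeR's test 1 of the 11 was higher, against 3.72% of all genes, and 2 were lower, against 1.78%. DESeq2 and limma voom each had 1 higher and 4 lower. Of all genes DESeq2 called 8.15% higher and 4.89% lower, and limma voom 4.98% and 2.67%. Of the genes encoding the gate's surface proteins, Adgre1 fell (log2 -0.55, SE 0.12, edgeR adjusted p = 0.0336). Fcgr1 stood at -0.44 (SE 0.11) without passing, and Ptprc at 0.02 (SE 0.11). CPM here means counts as a rate of the library total, scaled with edgeR's TMM factors. Markers of fibroblasts and adipocyte precursors, which the gate should leave out, were not at 0. They summed to 815 to 1366 CPM in mtD2- and 219.5 to 285.4 in mtD2+, and 7 of 10 fell, against 1.78% of all genes. The mtD2- library of mouse 4 had the highest level of its group for 28 of the 46 genes, against 31.1% of all genes tested. The mtD2+ library of that mouse was the highest of its group for 23, against 27.5%. Since RNA was pooled from sorted cells, fewer cells of a type and less RNA per cell cannot be told apart.

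Neuraminidase, alpha-galactosidase and the catalytic subunit of the proton pump rose most in macrophages with adipocyte mitochondria. In all, 8 of the 46 genes rose, namely Neu1, Gla, Atp6v1a, Atp6v1d, Atp6v0c, Ctsa, Ctsd and Atp6v1c1, and 2 fell, Ctsf and Asah1. That is 21.7% called by edgeR's quasi-likelihood test with the mouse as a block, against 5.50% of all 13933 genes tested. Higher calls alone were 8 of 46, against 3.72% of all genes, and lower calls 2 of 46, against 1.78%. Because the list was chosen with earlier results known, this contrast is no independent result. Among 71 other genes of the lysosome and its pump 5.63% were called. The contrast with all genes was smaller in other settings. A stricter filter on low counts gave 10 of the 46, against 9.57% of the genes it left, and DESeq2 gave 11, against 13% of all genes. The rise did not extend over the list, since the median log2 fold change was 0.04 with 24 positive and 22 negative values, against 0.00 for all genes. The calls rest on the comparison within mice. Without the mouse as a block, edgeR called 0 of the 46, with adjusted p = 0.0616 to 0.463 for the 10 genes, and of all genes it called 1.06% higher and 0.510% lower. At an unadjusted p of 0.05 that fit had 10 of the 46 higher and 3 lower, against 8.84% and 8.69% of all genes. All 10 kept their direction in that fit.

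**Figure D1:**
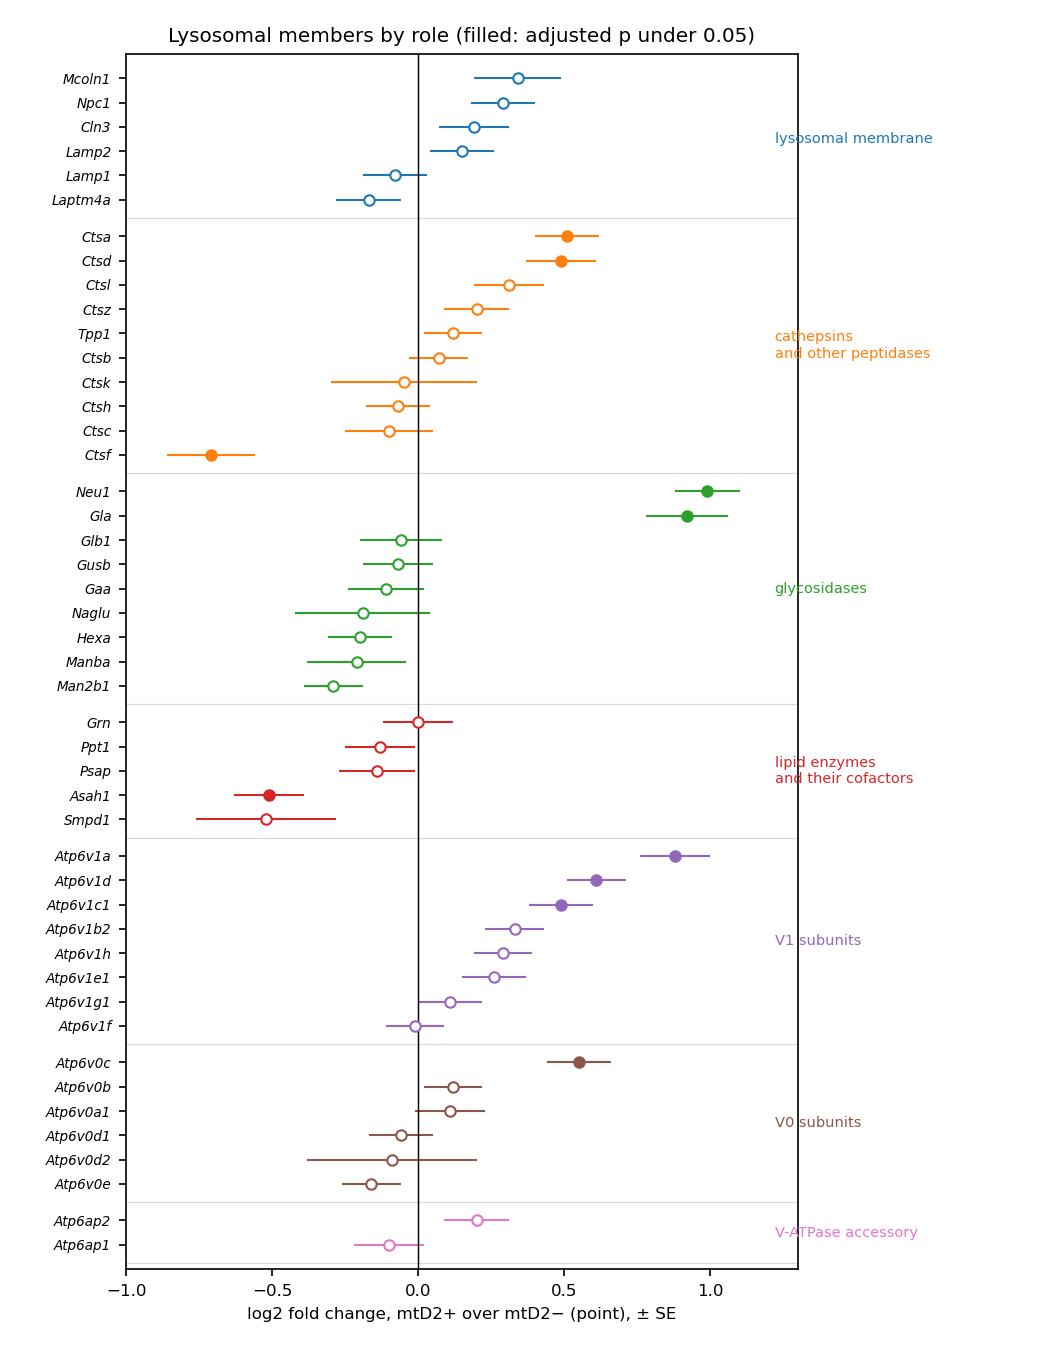
Log2 fold change of each of the 46 genes (mtD2+ over mtD2-, horizontal axis) with its SE, grouped by role; filled points passed an adjusted p of 0.05. The 8 filled points to the right run from 0.49 to 0.99, and the 2 to the left stand at -0.71 and -0.51.

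The stretches below are shown because many lysosomal genes carry an E-box of the CLEAR type in their promoters, a sequence that the transcription factors TFEB and TFE3 are known to bind. RefSeq promoter windows on GRCm38.p6, from 250 bases before to 50 after a start, were matched for 37 of the 46 genes; Ctsh, Ctsb, Asah1, Npc1, Atp6v1b2, Atp6v1c1, Atp6v1g1, Atp6v1h and Atp6v0d2 had no entry. The palindrome TCACGTGA, which reads the same on both strands and contains the core CACGTG, lay in the windows of 8 of these 37 (21.6%), against 1.12% of 27025 genes. The core alone lay in 15 of 37 (40.5%), against 8.09%. The motif was itself defined on promoters of lysosomal genes, so its frequency in the list is no independent result. Of the 8 genes with TCACGTGA, 4 rose (Ctsa, Ctsd, Gla and Atp6v1a), against 3.72% of all genes. The other 4 were not called (Cln3, Mcoln1, Atp6v0d1 and Atp6v0e). Over the 8 the median log2 fold change was 0.42, with a range of -0.16 to 0.92. Over the 29 matched genes without the palindrome it was -0.06. Split by the core the medians were 0.12 with it and -0.03 without. Its 15 genes held 4 that rose, against 3.72% of all genes, 10 not called and 1 that fell, Ctsf, against 1.78%. The share called among all genes with either motif was not counted. Neu1, Atp6v1d and Atp6v0c rose without these letters in their windows. Printed stretches end at the start, so Atp6v0d1 and Atp6v0e have no line. In Atp6v0d1 the palindrome begins 4 bases before the start and runs past it. In Atp6v0e it begins at base 3 from the start. The lines give 30 bases on each gene's own strand, with the motif in capitals, first for the genes that rose and then for Cln3 and Mcoln1.
Ctsa, chr2:164833743-164833772, plus strand: gaacaatgagcaaactgTCACGTGAtgcag
Ctsd, chr7:142387908-142387937, minus strand: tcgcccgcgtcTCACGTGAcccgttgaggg
Gla, chrX:134601215-134601244, minus strand: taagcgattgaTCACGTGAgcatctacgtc
Gla, chrX:134601182-134601211, minus strand: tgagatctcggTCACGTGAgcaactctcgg
Atp6v1a, chr16:44139373-44139402, minus strand: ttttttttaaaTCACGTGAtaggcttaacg
Cln3, chr7:126583340-126583369, minus strand: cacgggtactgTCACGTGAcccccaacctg
Mcoln1, chr8:3500462-3500491, plus strand: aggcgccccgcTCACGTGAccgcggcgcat
Gla carries the palindrome in 2 copies, with first bases 228 and 195 bases before the start, and Ctsd, Atp6v1a, Cln3 and Mcoln1 at 99, 132, 122 and 46 bases before it. Ctsa likewise holds 2 copies around the later of its RefSeq starts, 1 of them 13 bases before it (shown) and 1 just after it.

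Among the cathepsins and other lysosomal peptidases, 2 of 10 rose, against 3.72% of all genes, 1 fell, against 1.78%, and 7 were not called (median log2 0.10). Ctsa encodes cathepsin A, a serine carboxypeptidase that also shields neuraminidase and beta-galactosidase from degradation (chromosome 2, 164832873 to 164841032). In mice 1 to 4 the mtD2- libraries held 2062, 1730, 1531 and 2379 CPM of it, the mtD2+ libraries 2543, 2911, 2155 and 3389. Every mouse was higher in mtD2+, although the groups overlapped, and the log2 fold change was 0.51 (SE 0.11, adjusted p = 0.0297). The call was lost without mouse 1, 2 or 3 (log2 0.44 to 0.59 over the fits that each leave out a mouse). Exons of Ctsa share 495 bases, 10.5% of its length, with Pltp on the opposite strand. The sources used here do not say whether the counting used strand, and reads of that stretch are therefore uncertain; Pltp itself stood at -0.16 (SE 0.13, adjusted p = 0.504).

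Ctsd encodes cathepsin D, the main aspartic protease of lysosomes (chromosome 7, 142371148 to 142388038). The mtD2- libraries of mice 1 to 4 contained 1040, 924.5, 743.5 and 1368 CPM, the mtD2+ libraries 1248, 1620, 1062 and 1783. It was higher in 4 of 4 mice, most in mouse 2 (log2 ratio 0.81) and least in mouse 1 (0.26), with overlapping groups. The log2 fold change was 0.49 (SE 0.12, adjusted p = 0.047), and the call was lost without any 1 of the mice (0.39 to 0.57). Ctsd shares 163 exon bases on the same strand with Ifitm10, which rose by 1.67 (SE 0.22) but had at most 638 reads in a library, against at least 17681 for Ctsd.

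Ctsf, the gene of the cysteine protease cathepsin F, was the peptidase that fell (chromosome 19, 4855129 to 4860912). Its mtD2- libraries held 41.52, 36.98, 39.28 and 26.4 CPM, and its mtD2+ libraries 21.65, 23.93, 22.5 and 19.18. All mtD2+ libraries lay below all mtD2- libraries (log2 -0.71, SE 0.15, adjusted p = 0.031). The call was lost without mouse 1, 2 or 3 (-0.79 to -0.63) and with a correction for length and GC content (-0.61). Ctsf moved in the same direction as the fibroblast and precursor markers, whose sums had log2 ratios of -1.69, -1.81, -1.89 and -2.49 in mice 1 to 4. The macrophage marker sum, of which C1qb was the largest part, also moved that way, with ratios of -0.27, -0.09, -0.27 and -0.31. The part of either list in the result was not tested. Ctsk, which encodes the collagen-degrading cathepsin K, was scarce: mtD2- libraries averaged 10.79 ± 4.55 CPM, mtD2+ libraries 10.25 ± 4.01 (SD, n = 4), a log2 difference of -0.05 (SE 0.25).

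The other peptidases were not called. Ctsb, encoding cathepsin B, had the highest level per gene length of all 46, at 2077 ± 293 RPKM in mtD2- and 2107 ± 352 in mtD2+ (SD, n = 4). Its libraries held 9537, 9804, 7461 and 12093 CPM against 9314, 12126, 8164 and 11234, with overlapping groups (log2 0.07, SE 0.10, adjusted p = 0.723). Ctsl, for cathepsin L, stood at log2 0.31 (SE 0.12, adjusted p = 0.172) and was higher in 4 of 4 mice. Values for Ctsz, Tpp1, Ctsh and Ctsc were 0.20, 0.12, -0.07 and -0.10 (SE 0.10 to 0.15). In RPKM the order was Ctsb, Ctsz (806.1 over all libraries), then Ctsa and Ctsd (491.4 and 480.9), which lay closer together than the spread of either. Ctsf (14.8) and Ctsk (7.085) closed the order.

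Glycosidases cut sugars from glycoproteins and glycolipids. Here 2 of 9 rose, against 3.72% of all genes, while the other 7 had negative values that did not pass. Neu1 encodes neuraminidase, the sialidase that removes terminal sialic acid (chromosome 17, 34931253 to 34935953). Its mtD2- libraries gave 209.7, 193.6, 146.3 and 354.9 CPM, the mtD2+ libraries 374, 357.5, 354.8 and 689.4. Each mouse was higher in mtD2+, by log2 ratios of 0.83, 0.88, 1.28 and 0.96, and only the high mtD2- value of mouse 4 made the groups overlap. The log2 fold change was 0.99 (SE 0.11, adjusted p = 0.00323), and edgeR kept the call whichever mouse was left out (0.90 to 1.04).

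Gla encodes alpha-galactosidase, which removes galactose from globotriaosylceramide (chromosome X, 134588149 to 134601125). Its mtD2- libraries held 149.6, 138, 83.05 and 478.8 CPM and its mtD2+ libraries 277.9, 303.5, 191.8 and 657.6. Mouse 4 had the highest level in both populations, and within each mouse mtD2+ was higher, by log2 ratios of 0.89, 1.13, 1.20 and 0.46. The fitted log2 fold change was 0.92 (SE 0.14, adjusted p = 0.00892), a call lost without mouse 1, 2 or 3 (0.84 to 1.08) but not without mouse 4.

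Hexa, the alpha subunit of beta-hexosaminidase, had the highest RPKM of the glycosidases (357.1 ± 42.6 in mtD2- and 300.0 ± 45.7 in mtD2+, SD, n = 4). It stood at 689.7, 673.8, 517.1 and 741.7 CPM against 549.7, 692.6, 479.6 and 564.4, with overlapping groups (log2 -0.20, SE 0.11, adjusted p = 0.335). Man2b1, for lysosomal alpha-mannosidase, was lower in 4 of 4 mice without passing, at 801.4, 874.1, 772.7 and 855.5 CPM against 616.5, 800.4, 589.5 and 711.1 (log2 -0.29, SE 0.10, adjusted p = 0.135). Values for Manba, Naglu, Gaa, Gusb and Glb1, which degrade mannosides, heparan sulfate, glycogen, glucuronides and beta-galactosides, lay between -0.21 and -0.06 (SE 0.12 to 0.23). The glycosidase median was -0.11. It was -0.33, 0.16, -0.05 and -0.20 in mice 1 to 4, so that mouse 2 had the opposite sign.

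Neu1, Ctsa and Glb1 encode proteins that assemble in 1 lysosomal complex, of which Neu1 and Ctsa rose while Glb1 stood at -0.06 (SE 0.14, adjusted p = 0.837). Ratios of reads within a library need no scaling between libraries. The ratio of Neu1 to Glb1 reads was 2.44, 2.68, 1.8 and 5.69 in mtD2- and 5.07, 4.14, 5.92 and 9.92 in mtD2+. It was higher in mtD2+ in 4 of 4 mice, with a mean log2 difference of 1.05 ± 0.48 (SD, n = 4, exact paired sign-flip test, two-sided p = 0.125, the smallest that 4 pairs allow). The ratio of Ctsa to Glb1 was higher by 0.58 ± 0.25 in 4 of 4 mice, with the same exact p of 0.125. These were 2 of 4 ratios, chosen after the values were seen, so their tests add no independent result. Adjusted over the 4 the p of the sign-flip test stays 0.125. Glb1 shares 175 exon bases with Tmppe on the same strand, a gene that stood at log2 0.26 (SE 0.14).

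Of the 5 genes for lipid enzymes and their cofactors, 1 fell, against 1.78% of all genes, and the other 4 were not called (median log2 -0.14). Asah1 encodes acid ceramidase, which splits ceramide into sphingosine and a fatty acid (chromosome 8, 41340197 to 41374773). It went from 449.7, 423, 449 and 395 CPM in mtD2- to 309.4, 366.9, 266.7 and 269.6 in mtD2+. The highest mtD2+ library lay below the lowest mtD2- library (log2 -0.51, SE 0.12, adjusted p = 0.0415). Its call was lost without any 1 of the mice (-0.61 to -0.42). Asah1 too moved in the direction of the fibroblast and precursor markers and of the macrophage marker sum, which was also lower in mtD2+. The part of either list in it was not tested.

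Smpd1, for acid sphingomyelinase, which makes the ceramide that Asah1 degrades, had a similar value with a wider error (-0.52, SE 0.24, adjusted p = 0.248) and was lower in 3 of 4 mice. Grn, the gene of progranulin, had the highest RPKM of this group and held 2137, 2099, 1957 and 2524 CPM in mtD2-, against 1876, 2686, 1859 and 2388 (log2 0.00, SE 0.12, adjusted p = 0.99). Psap, the precursor of the saposins that present lipids to hydrolases, was at -0.14 (SE 0.13), and Ppt1, which removes palmitate from proteins, at -0.13 (SE 0.12). In each of these 3 the mtD2+ library was higher in mouse 2 and lower in the other mice.

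None of the 6 membrane genes passed edgeR's test, and DESeq2 and limma voom also called 0. At an unadjusted p of 0.05 it was 1 of 6 higher, against 11.8% of all genes, and 0 lower, against 11.0%. That gene was Npc1, which exports cholesterol from the lysosome (log2 0.29, SE 0.11, adjusted p = 0.156), with all mtD2+ libraries above all mtD2- libraries. Mcoln1, a calcium channel of the lysosomal membrane, likewise had groups that did not overlap (log2 0.34, SE 0.15, adjusted p = 0.224). Such separation upward was found in 5 of the 46 genes, against 6.55% of all genes tested, and downward in 2, against 6.01%. Laptm4a, a small transmembrane protein, had the highest RPKM of this group and stood at 505.8, 591.9, 596.3 and 504.1 CPM against 388.4, 599.1, 537 and 447.7 (log2 -0.17, SE 0.11, adjusted p = 0.383). The abundant lysosomal coat proteins Lamp1 and Lamp2 were at -0.08 and 0.15 (SE 0.11 each), and Cln3 at 0.19 (SE 0.12).

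**Figure D2:**
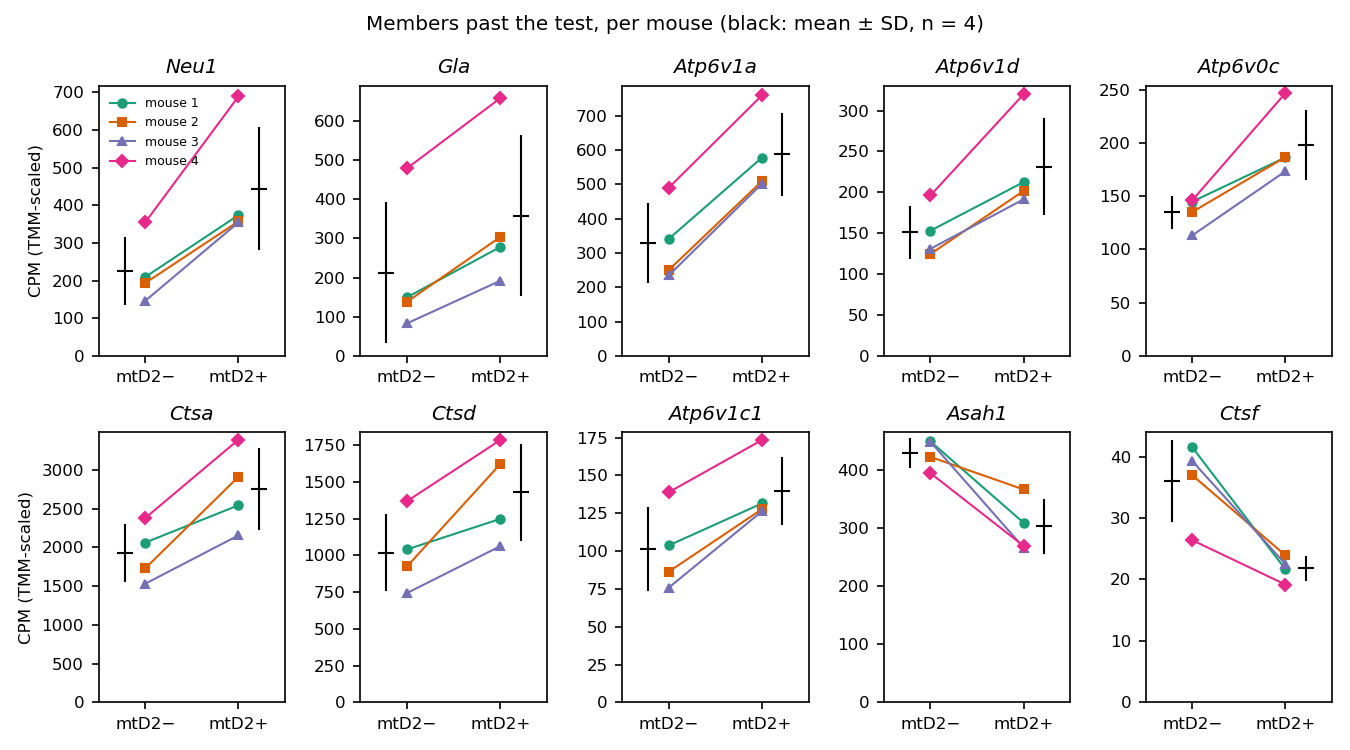
Level of the 10 genes past the test in each library, in TMM-scaled CPM (vertical axes from 0), with a line joining the 2 populations of each mouse and black bars for mean ± SD. All lines of the 8 rising genes slope upward, and mouse 4 starts highest in each of them.

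In the V1 sector of the proton pump 3 of 8 subunit genes rose, against 3.72% of all genes, and 5 were not called. Values were positive for 7 of 8 (median log2 0.31), and 7 of 8 were higher in 4 of 4 mice, against 16.3% of all genes. The median was 0.29, 0.43, 0.33 and 0.31 in mice 1 to 4 and lay between 0.29 and 0.33 whichever mouse was left out. Over the 16 pump genes edgeR called 4 higher and 0 lower, against 3.72% and 1.78% of all genes. At an unadjusted p of 0.05 it had 7 higher and 0 lower, against 11.8% and 11.0%. DESeq2 called 5 higher and 0 lower, against 8.15% and 4.89% of all genes, and limma voom 4 and 0, against 4.98% and 2.67%.

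Atp6v1a encodes the catalytic A subunit, where ATP is split (chromosome 16, 44085402 to 44139705). In mice 1 to 4 its mtD2- libraries held 341.2, 250.5, 234.7 and 490.5 CPM, its mtD2+ libraries 578.3, 509.6, 502.3 and 759.8. The lowest mtD2+ library was above the highest mtD2- library, and the log2 fold change of 0.88 (SE 0.12, adjusted p = 0.00554) stayed called whichever mouse was left out (0.81 to 0.96). Atp6v1b2, its partner in the ring as the B subunit, was higher in 4 of 4 mice without overlap but did not pass (190, 179.6, 161.8 and 205.4 CPM against 237.1, 221.1, 210.8 and 257.4). Its log2 fold change was 0.33 (SE 0.10, adjusted p = 0.0864).

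Atp6v1d encodes the D subunit of the central rotor (chromosome 12, 78842989 to 78861638). The mtD2- libraries of mice 1 to 4 gave 153.1, 124.6, 130.9 and 196.2 CPM, their mtD2+ partners 212.6, 201.9, 191.5 and 320. The difference came to 0.61 in log2 units (SE 0.10, adjusted p = 0.0141). Every mouse was higher in mtD2+, and only the mtD2- library of mouse 4 reached into the mtD2+ range. Its call was lost without mouse 1, 2 or 3 (0.57 to 0.65).

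Atp6v1c1 encodes the C subunit, which joins V1 to V0 (chromosome 15, 38661904 to 38692443). It gave 103.7, 86.36, 75.82 and 138.9 CPM in macrophages without the reporter signal, then 131.5, 127.7, 126.3 and 173.4 in those with it. Here too mtD2+ was higher in 4 of 4 mice while the groups overlapped through mouse 4 (log2 0.49, SE 0.11, adjusted p = 0.0442). The call was lost without any 1 of the mice (0.42 to 0.55) and when libraries were scaled by their totals instead (0.43).

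Of the remaining V1 genes, Atp6v1h, a regulatory subunit, and Atp6v1e1 and Atp6v1g1, which form the outer stalks, stood at 0.29, 0.26 and 0.11 (SE 0.10 to 0.11) with adjusted p = 0.147, 0.183 and 0.576. Atp6v1f, another rotor subunit, was at -0.01 (SE 0.10, adjusted p = 0.973). Atp6v1e1 had the highest RPKM of the sector (146.4 ± 15.9 in mtD2- and 170.6 ± 33.6 in mtD2+, SD, n = 4), with 170.6, 156.5, 149.1 and 220.4 CPM against 190.5, 212.6, 165.9 and 271.3. The ratio of Atp6v1a to Atp6v1f reads was 2.67, 1.75, 2.01 and 2.56 in mtD2- and 4.45, 3.33, 4.31 and 4.39 in mtD2+. Its mean log2 difference was 0.89 ± 0.16 (SD, n = 4, exact paired sign-flip p = 0.125), higher in 4 of 4 mice. The pair was chosen after the values were seen, so the test adds no independent result.

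In the V0 sector 1 of 6 genes rose, against 3.72% of all genes, and 5 were not called (median log2 0.02, with 3 positive and 3 negative values). Atp6v0c encodes the proteolipid c subunit, of which several copies form the rotating membrane ring (chromosome 17, 24163866 to 24169702). It rose from 144.9, 135.2, 113.2 and 146.1 CPM in mtD2- to 186.5, 186.8, 173.5 and 246.9, with no overlap between the groups (log2 0.55, SE 0.11, adjusted p = 0.0252). Its call was lost without any 1 of the mice (0.48 to 0.61) and with library totals (0.49). A pseudogene of it, Atp6v0c-ps2, took 35 to 891 reads per library, beside 2692 to 5033 for Atp6v0c. The split of reads between these copies is therefore uncertain, and its part in the call was not tested.

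Atp6v0b, the other proteolipid of the ring, had the highest RPKM of the sector and stood at 285, 277.3, 217.1 and 338.4 CPM against 286.7, 299.9, 259.3 and 368 (log2 0.12, SE 0.10, adjusted p = 0.507). The d subunit, which couples the ring to the rotor, has a ubiquitous form and one known from osteoclasts and some macrophages. Atp6v0d1, the ubiquitous form, held 101.8, 100.7, 93.31 and 121.8 CPM in mtD2-, against 96.51, 103.7, 95.28 and 103.5 (log2 -0.06, SE 0.11, adjusted p = 0.789). Atp6v0d2 was scarce, at 10.85, 14.22, 8.536 and 9.797 CPM against 11.21, 8.571, 6.201 and 17.03 (log2 -0.09, SE 0.29, adjusted p = 0.892), and its direction differed between mice. Per length the d1 form was at 56.79 RPKM over all libraries and the d2 form at 3.976. Atp6v0e was lower in 4 of 4 mice without passing (-0.16, SE 0.10), and Atp6v0a1 was at 0.11 (SE 0.12).

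Reads of Atp6v0c relative to Atp6v0d1 were higher in mtD2+ in 4 of 4 mice, by a mean log2 difference of 0.61 ± 0.26 (SD, n = 4, exact paired sign-flip p = 0.125). This pair too was chosen after the values were seen, and its test adds no independent result. The accessory proteins Atp6ap1 and Atp6ap2, which help to assemble the pump, were at -0.10 and 0.20 (SE 0.12 and 0.11); edgeR, DESeq2 and limma voom called 0 of these 2, as did an unadjusted p of 0.05. Atp6ap1, the more abundant in RPKM, gave 578.5, 450.2, 495.7 and 658.4 CPM in mtD2-, against 499.9, 555.9, 428.3 and 542.4 CPM; it was higher in mouse 2 and lower in the other mice. Summed over the V1 genes, the mtD2- libraries held 1283, 1123, 1036 and 1648 CPM, their mtD2+ partners 1706, 1634, 1510 and 2182, so that each mouse gained. For V0 the sums were 952, 925, 795 and 1084 CPM against 949, 1007, 929 and 1184, higher in mice 2, 3 and 4 and lower in mouse 1.

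**Figure D3:**
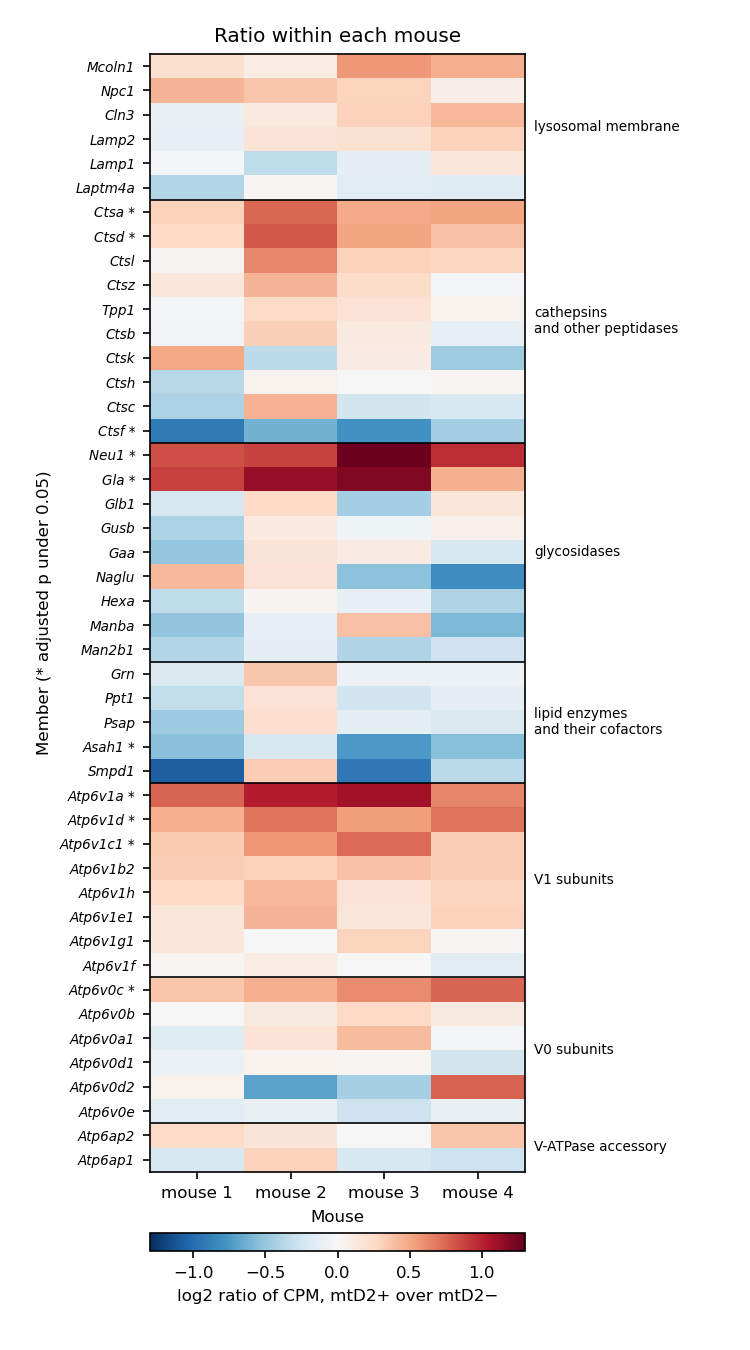
Log2 ratio of mtD2+ to mtD2- CPM in each mouse (columns) for the 46 genes (rows, by role; an asterisk marks a gene past the test). V1 rows are nearly all red in every mouse, whereas the glycosidases other than Gla and Neu1 and the lipid genes are mostly blue in mice 1, 3 and 4 and mostly red in mouse 2.

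Counted by mouse, 17 of the 46 genes were higher in 4 of 4 mice, against 16.3% of all genes, and 4 were lower in 4 of 4, against 16.0%. Besides the 8 that rose, the 17 held Npc1, Mcoln1, Ctsl, Atp6v1b2, Atp6v1h, Atp6v1e1, Atp6v1g1, Atp6v0b and Atp6ap2. The 4 were Ctsf, Asah1, Man2b1 and Atp6v0e. Of the 24 enzyme and cofactor genes, 9 had positive and 15 negative values, and their median log2 ratio was -0.27, 0.24, -0.03 and -0.11 in mice 1 to 4. The pump genes had medians of 0.15, 0.24, 0.22 and 0.29.

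**Figure D4:**
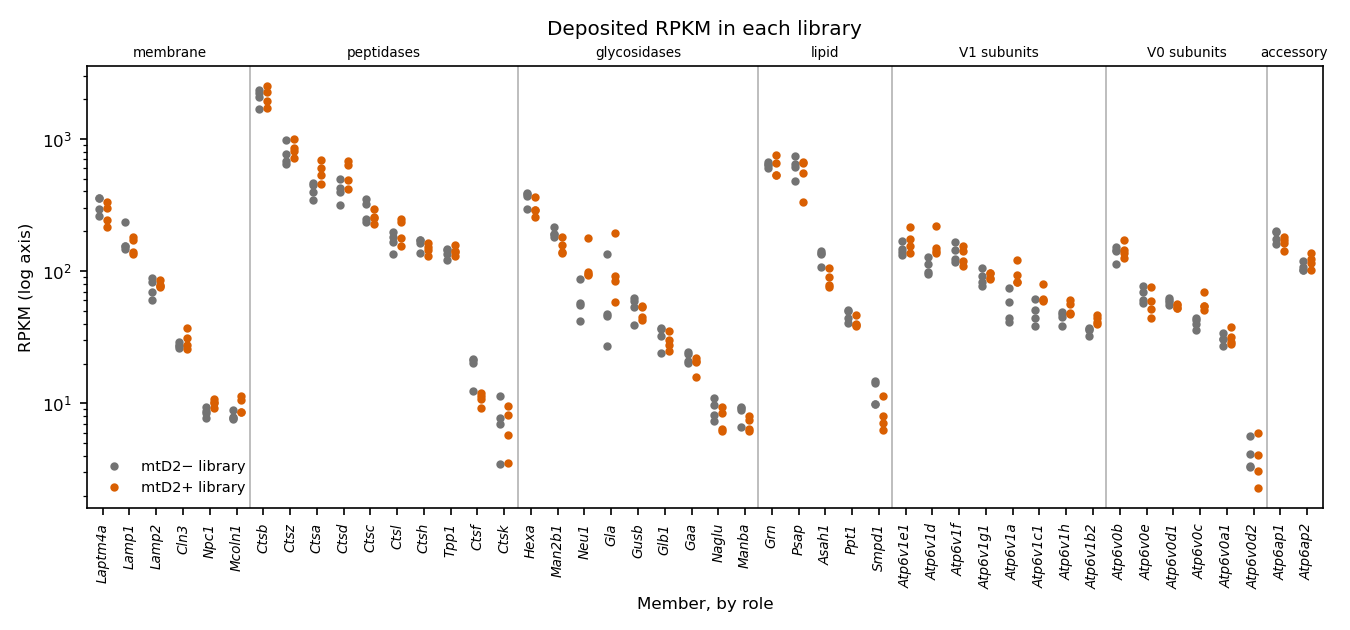
Deposited RPKM of each gene in the 4 mtD2- (grey) and 4 mtD2+ (orange) libraries on a log axis, by role. Ctsb is the highest at a mean of 2092 RPKM and Atp6v0d2 the lowest at 3.976.

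Levels per length spanned a wide range within each role. Over all libraries the pump genes lay between 3.976 RPKM (Atp6v0d2) and 173.2 (Atp6ap1), the peptidases between 7.085 (Ctsk) and 2092 (Ctsb), and the glycosidases between 7.783 (Manba) and 328.5 (Hexa). The second lowest pump gene was Atp6v0a1 at 31.18 RPKM. Within V1 the order in mtD2- was Atp6v1e1, Atp6v1f, Atp6v1d, Atp6v1g1, Atp6v1a, Atp6v1c1, Atp6v1h and Atp6v1b2, at 146.4, 137.8, 108.8, 89.44, 54.61, 48.59, 45.12 and 35.29 RPKM. Neighbours in that order differed by less than the larger of their SDs, except Atp6v1f from Atp6v1d, Atp6v1d from Atp6v1g1, Atp6v1g1 from Atp6v1a and Atp6v1h from Atp6v1b2. In mtD2+ Atp6v1a reached 94.97 ± 17.7 RPKM, level with Atp6v1g1 at 92.44 ± 5.24.

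Another 77 genes of the lysosome and its pump were counted beside the 46, and 71 could be tested. Of these 3 rose and 1 fell, or 5.63%, close to the 5.50% of all genes, and their median log2 fold change was -0.06. Dpp7, a dipeptidyl peptidase of lysosomes, rose, with 165.5 ± 53 CPM in mtD2- against 303.5 ± 84.8 (SD, n = 4, log2 0.89, SE 0.11, adjusted p = 0.00478). Ctns, the exporter of cystine, likewise rose, with 116.9 ± 28.1 CPM against 198.4 ± 75.3 (log2 0.72, SE 0.11, adjusted p = 0.0101). Acp5, the tartrate-resistant acid phosphatase, was the third that rose, with 33.79 ± 16.5 CPM against 57.03 ± 7.35 (log2 0.88, SE 0.21, adjusted p = 0.0442). Among the other pump and assembly genes 12 were tested and edgeR called 0, with 2 higher at an unadjusted p of 0.05, against 11.8% of all genes. DESeq2 called 1 higher, against 8.15%, and limma voom 0. Of the 77, 6 had too few reads to test, with at most 28 in a library.

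Markers of adipocytes, the donor cells, did not pass edgeR's test in any of 6 genes. At an unadjusted p of 0.05 it had 2 higher, against 11.8% of all genes. DESeq2 called 2 higher, against 8.15%, and limma voom 0. The sum of the adipocyte markers was 91.09 to 160 CPM in mtD2- and 108.9 to 246.1 in mtD2+. The log2 ratio of this sum was 0.47, 1.00, -0.02 and 0.62 in mice 1 to 4. Of the 8 genes that rose, Neu1, Gla, Atp6v1a and Atp6v1c1 had their highest ratio in mouse 3, Ctsa and Ctsd in mouse 2, and Atp6v1d and Atp6v0c in mouse 4. The part of adipocyte RNA in these results was not tested. Dendritic cell markers summed to 119.4 to 152.2 CPM in mtD2- and to 162.8 to 204.1 in mtD2+, higher in 4 of 4 mice (log2 ratios 0.25, 0.77, 0.30 and 0.11) with no overlap. Most of that sum was Cd209a (log2 0.40, SE 0.14, adjusted p = 0.138). Of the 4 tested edgeR called 0, with 1 higher at an unadjusted p of 0.05, against 11.8% of all genes. DESeq2 called 1 higher, against 8.15%, and limma voom 0. These markers moved in the direction of the genes that rose, and their part in those results was not tested. Neutrophil markers summed to at most 18.28 CPM in any library, with Ly6g at 0 in all, and B cell and T and NK cell markers to at most 9.109 and 3.321 CPM.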

How the data were processed

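RNA of 8 sorted macrophage populations, 4 mtD2- and 4 mtD2+ from the same 4 mice, was made into libraries with a kit for very small amounts of RNA, per the labels' protocols. The tools of the authors were STAR 2.0.4b, Subread's featureCounts 1.45 and bcl2fastq, and the build was GRCm38, per the submitters' processing notes; the sources used here state no options. The authors deposited whole-number counts per gene, CPM (the count over the library total) and RPKM (that CPM per kilobase); RPKM is used only to compare levels between genes. Symbols came from GENCODE M21 (40340 of 41388 identifiers), and gene spans are those of the deposited tables on GRCm38.

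The test across genes was edgeR's quasi-likelihood F test on the counts (version 4.0.16, R 4.3.3; TMM factors, mouse as block, then group) over the 13933 genes left by its expression filter (minimum count 10, minimum total 15, proportion 0.7). A gene was called, and is said to have risen or fallen, at a Benjamini-Hochberg adjusted p under 0.05 over all genes tested. Fold changes are log2 of mtD2+ over mtD2-. Each SE is that value divided by the square root of F. Ratios per mouse use CPM plus 0.5. The pairing comes from the labels, which give each library a mouse identity; deviations of its 2 libraries from their group means correlated at 0.032, 0.066, 0.136 and 0.237 in mice 1 to 4, and at most at 0.053, 0.022, 0.015 and -0.007 between an mtD2- library and the mtD2+ library of another mouse, so the partner was the closest for mice 2, 3 and 4 but not for mouse 1. Alternatives were no block, 2 scalings, 2 filters, DESeq2 1.42.0, limma voom (3.58.1), robust edgeR, protein-coding genes alone, a length and GC correction, and fits without 1 mouse each; leaving out mice for the 4 read ratios was added after seeing the data. The test was tested on simulated counts. Members and lists were chosen with earlier results of these data known. Values in every library are given for genes past the test, for the next by p up to 12 in all, for Atp6v0d1 and Atp6v0d2 and for the highest RPKM in each role; of the other lysosomal genes, those called are named, at most 6 in each direction, except 1 that is not reported here. The libraries of a group come from separate mice. With the mouse as block, p-values measure how the difference within a mouse varies over 4 animals, not how levels vary between animals.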

Additional observations from a re-analysis of the deposited data

Results flagged for a closer look

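Of 92 sets of 4 libraries (46 genes in 2 groups), 5 held a library far from the other 3 by Dixon's test; chance gives about 1 in 20 sets. In mouse 4 these were Gla in mtD2- at 478.8 CPM (others 83.05 to 149.6), Neu1 in mtD2+ at 689.4 CPM (others 354.8 to 374), Atp6v1c1 in mtD2+ at 173.4 CPM (others 126.3 to 131.5) and Atp6v1d in mtD2+ at 320 CPM (others 191.5 to 212.6). The fifth was Ppt1 in the mtD2+ library of mouse 2 at 173.7 CPM (others 145.6 to 147.9). Without mouse 4 the log2 fold changes of Gla, Neu1, Atp6v1c1 and Atp6v1d were 1.08, 1.00, 0.55 and 0.57, against 0.92, 0.99, 0.49 and 0.61 with it; the call of Atp6v1c1 was lost.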

How the results depend on the processing

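The calls rested on the pairing by mouse: with no replicate block edgeR called 0 of the 46 genes higher and 0 lower, 0 of the other lysosomal genes higher, and 147 higher and 71 lower of all genes. Leaving out 1 mouse at a time gave 2 to 5 of the 46 higher and 0 to 1 lower, 1 to 2 other lysosomal genes higher and 0 to 1 lower, and 120 to 432 higher and 46 to 123 lower of all genes; fewer samples enter these fits. The V0 median ranged from 0.03 to 0.11. DESeq2 called 5 other lysosomal genes higher and 4 lower, and 1135 higher and 681 lower of all genes; the cause was not tested. Library totals, a stricter filter and limma voom each called 2 other lysosomal genes lower, and the stricter filter 373 lower of all genes. With library totals 53.8% of calls were higher, against 67.7%, and the median of all genes moved to -0.06. The length and GC correction with the replicate block called 1 of the 46 lower.

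Over the single genes and alternatives 581 values kept direction and side of the threshold, 41 lost the call, 1 gained it (Atp6v1b2 with DESeq2) and 21 changed sign, all in genes not called. Atp6v1f went to 0.00 with RLE factors, the stricter filter, DESeq2 and the length and GC correction and to 0.02 with protein-coding genes alone; Grn went to -0.05 with library totals and Atp6v0d1 to 0.00 with the length and GC correction. Leaving out 1 mouse at a time also turned the sign of Lamp1 (-0.16 to 0.01), Ctsb (from 0.00), Ctsc (-0.28 to 0.00), Ctsh (to 0.02), Ctsk (-0.24 to 0.09, with 0.05 without mouse 2), Glb1 (-0.17 to 0.07), Gaa (-0.20 to 0.02), Gusb (-0.13 to 0.05), Naglu (-0.39 to 0.03), Grn (from -0.11), Atp6v1f (-0.04 to 0.04) and Atp6v0d2 (-0.38 to 0.13, with 0.04 without mouse 3). Each of the 10 calls kept its direction in every alternative run. The spread left after mouse and group were fitted was 33.7% (biological coefficient of variation, common to all genes). With 4 mice, small differences of scarce genes such as Atp6v0d2 were not detectable.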
